A study of Mus musculus with 26 samples.

Results

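Oxidative phosphorylation (OXPHOS) is the route by which mitochondria turn the energy of NADH and succinate into ATP. Complexes I and II take in electrons, complex III passes them to cytochrome c, complex IV hands them to oxygen, and complex V, the ATP synthase, uses the proton gradient that complexes I, III and IV build. Every complex but II joins subunits from the nuclear genome with subunits from the small mitochondrial genome, so the 2 genomes have to supply transcripts for the same machines. Microglia, the macrophages of the brain, can draw on both OXPHOS and glycolysis for energy.

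OXPHOS transcripts were examined as a set of 112 genes among the 32932 gene identifiers of the deposited tables. A gene was a member if its symbol began with Nduf, Uqcr, Sdha to Sdhd, Cox4 to Cox8, Atp5, mt-Nd, mt-Co, mt-Atp or mt-Cytb and did not end as a pseudogene, and it was followed by its Ensembl identifier. The nuclear genome encoded 99 members: 38 counted with complex I by their symbols, 4 subunits of complex II, 8 of complex III, 18 of complex IV, 19 of complex V and 12 assembly factors, whose symbols carry the stem af. Ndufa4, named as a complex I subunit, is known to belong to complex IV, and it and its paralogue Ndufa4l2 were kept with complex I in all counts and sums by complex. Atp5s, which 1 of the gene lists names Dmac2l, was likewise counted with complex V by its symbol. The mitochondrial genome encoded 13: 7 of complex I, 1 of complex III, 3 of complex IV and 2 of complex V. The filter on low counts kept 107 members in the fit of all microglia. Ndufa4l2, Cox7b2, Cox8b, Cox8c and a second identifier named Atp5o were left out there. In the nuclei it also kept 107, leaving out Cox6a2, Cox7b2, Cox8b and Cox8c, and the second Atp5o identifier is missing from 1 of the 2 gene lists used for nuclei.

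All animals were C57Bl/6N mice whose mothers were injected intraperitoneally at E12.5 with poly(I:C), a double-stranded RNA mimic used to raise maternal immune activation (MIA), or with saline. Microglia were sorted from somatosensory (S1) cortex of wild-type offspring by Cd11b, Cx3cr1 and Cd45 and sequenced as single cells. There were 3 saline and 3 MIA libraries at E13, 3 and 3 at E15, and 4 saline and 2 MIA libraries at P14. The study's methods state that the samples held both sexes, but the titles of P14 saline 3-female and 3-male name a single sex. These 2 share a replicate number and were counted as separate libraries. A figure legend of the study counts 4 saline and 2 MIA mice at P14, so each P14 library may be a single animal. Embryonic libraries each pooled several embryos. E13 and E15 are the ages in the sample titles, and the study places these collections a day and 3 days after the injection. Nuclei were sorted with Hoechst from frozen S1 cortex of male E15 embryos, wild type or Csf1r-/-, in 2 libraries for each genotype and treatment. Csf1r encodes the receptor that microglia need to survive, and mice without it lack microglia. The labels do not say whether libraries of a group came from separate litters, so p-values measure only the spread between these libraries. The study describes the wild-type and Csf1r-null embryos as littermates and counts 4 pregnant dams in all for the nuclei. Treatment was given to the dam, so some nuclei libraries of the same treatment must share a dam.

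Between 266 and 5489 cells per microglia library were kept, with 5984405 to 96390248 unique molecular identifiers (UMIs, each standing for 1 captured RNA molecule), and 4386 to 5891 nuclei per nuclei library with 9206461 to 16163449 UMIs. The median UMIs per kept cell were 8244.5 to 25974.5 in embryonic and 3653 to 6880.5 in P14 libraries. Microglial markers were abundant in every microglia library, at 23735 to 28442 normalised CPM (UMIs scaled to a common library total with TMM factors) at E13, 36562 to 52681 at E15 and 53246 to 65490 at P14. Of 109 library pairs, 9 shared over 30 cell barcodes and the others at most 21. E13 MIA 2 and E15 MIA 3 shared 230, which was 61.3% of the smaller library, and P14 saline 3-female and 3-male shared 239, or 5.07%. Across stages, E13 MIA 2 also shared 157 with E15 saline 3 (41.9%). E13 saline 2 shared 33 with E15 saline 3 (1.79%) and 33 with E15 MIA 3 (2.24%). Saline and MIA libraries of the same age shared barcodes too. Replicates 1 at E13 shared 67 (23.9% of the smaller library) and replicates 2 at E13 shared 33 (8.8%). Replicates 3 at E15 shared 157 (10.7%) and replicates 1 at P14 shared 114 (2.01%). Counts of called members in the microglia are also given below with the copies left out. Among the nuclei, the label of wild-type MIA replicate 2 goes with 0 Csf1r UMIs and 0 microglia-like nuclei, and that of Csf1r-null saline replicate 2 with 10 and 7. The other wild-type libraries held 11 to 23 Csf1r UMIs and 6 to 9 microglia-like nuclei, and the other Csf1r-null libraries 1 to 4 and 0. Both libraries thus go against their labels, and the medians of the nuclei comparisons are given with and without them. Other values of the nuclei include them, with labels as deposited.

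OXPHOS transcripts took the smallest part of the microglial transcriptome at P14. In saline libraries, summed nuclear-encoded members stood at 28016, 29244 and 32062 normalised CPM at E13, at 29713, 21180 and 19270 at E15, and at 13472, 12436, 11776 and 11097 at P14. The P14 libraries lay below every embryonic library, whereas E15 saline 1 overlapped the E13 range. Summed mitochondrially encoded members stood at 45620, 41675 and 32702 at E13, at 24374, 34180 and 29043 at E15, and at 12255, 11198, 12680 and 12631 at P14. Here again the P14 libraries were lowest without overlap, and E15 saline 2 exceeded E13 saline 3. In MIA libraries, nuclear-encoded sums were 24469 to 34166 at E13, 18840 to 26562 at E15 and 12569 to 13448 at P14. Mitochondrially encoded sums of MIA libraries were 52114, 42379 and 24743 at E13, 23544, 33998 and 44416 at E15, and 11971 and 13453 at P14, so that E13 and E15 overlapped widely for these members while P14 was again lowest. These are shares of a library's UMIs, so a lower value can reflect fewer OXPHOS transcripts or more of other transcripts. The labels give no preparation batch, so a batch that goes with the stage cannot be told apart from it.

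**Figure D1:**
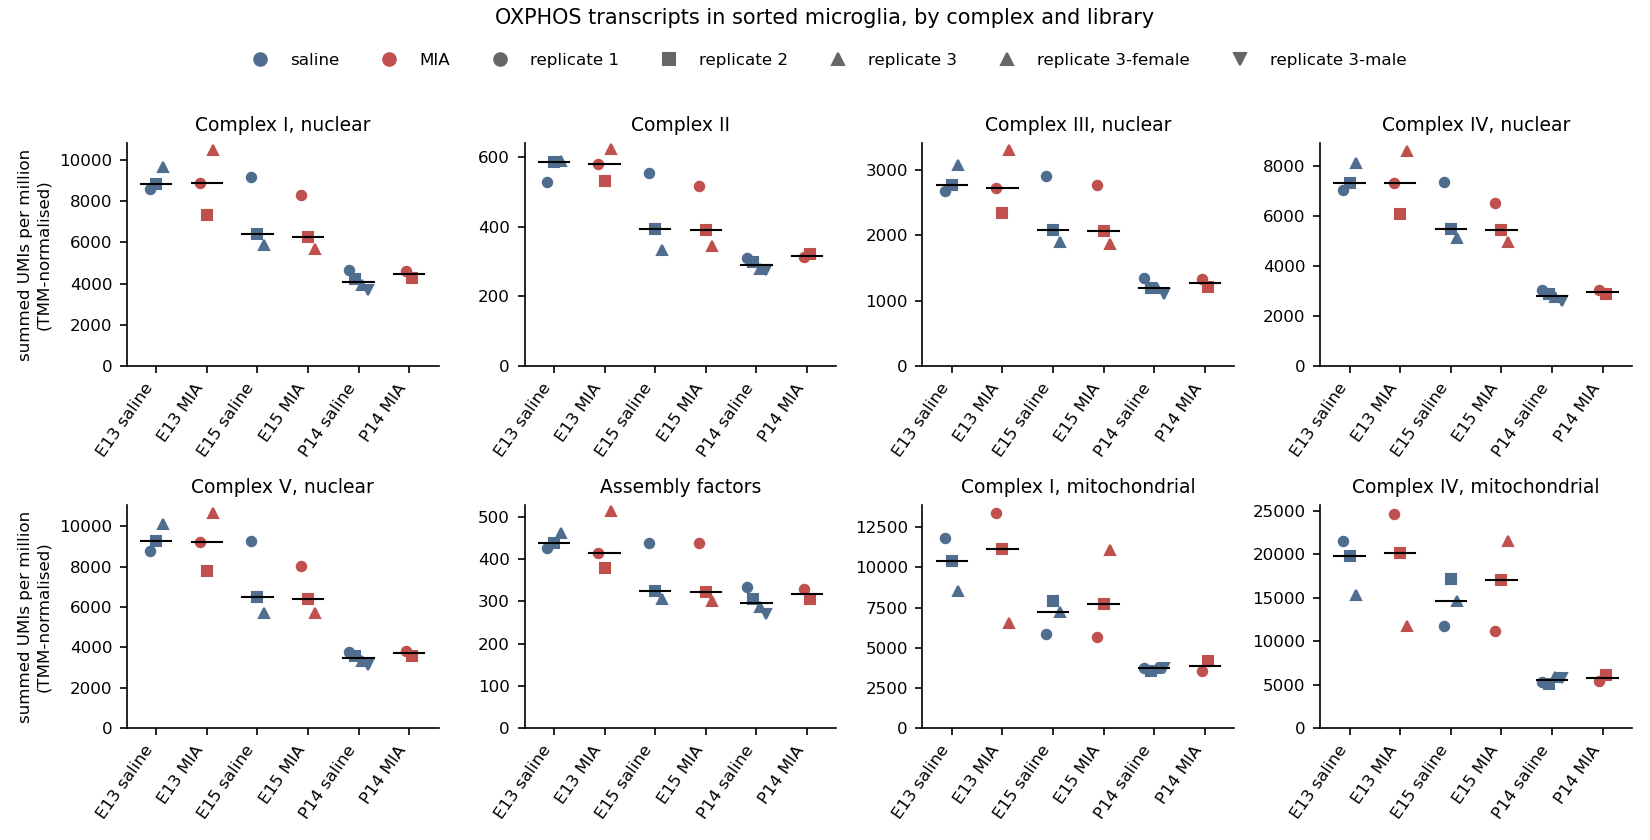
Summed TMM-normalised CPM of the members of each complex (y axis, starting at 0) in the 18 microglia libraries, by stage and treatment (x axis). Each point is a library, the horizontal line is the group median, blue is saline and red is MIA. All P14 points of nuclear complexes I, III, IV and V lie below all E13 and E15 points, and E15 replicate 1 of both treatments stands above the other E15 libraries in these panels.

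Complexes I, II and V in saline libraries were each lowest at P14. Nuclear-encoded complex I members summed to 8591, 8844 and 9681 normalised CPM in E13 saline, 9182, 6424 and 5893 in E15 saline, and 4662, 4203, 3924 and 3702 in P14 saline. Complex V sums were 8773, 9269 and 10123, then 9293, 6483 and 5730, then 3766, 3556, 3347 and 3147. Complex II, which is wholly nuclear-encoded and also works in the tricarboxylic acid cycle, summed to 530, 586 and 590, then 555, 394 and 333, then 310, 299, 280 and 277. In all 3 the P14 libraries were lowest and E15 saline 1 stood with the E13 libraries. Assembly factors summed to 425, 438 and 462 at E13, 438, 325 and 305 at E15, and 333, 306, 286 and 270 at P14, so that their E15 and P14 ranges overlapped.

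E15 saline 1 and E15 MIA 1 differed from the other E15 libraries in other measures too. Their summed neuronal markers stood at 203 and 271 normalised CPM, against 28 to 133 in the other 4 E15 libraries. Clusters removed before the sums held 1047 of 5510 cells in E15 saline 1 and 1620 of 5531 in E15 MIA 1. They held 337 of 3023 and 406 of 4605 in the other E15 saline libraries. In the other E15 MIA libraries they held 308 of 3494 and 83 of 1453. In E15 saline 1, 28.2% of cells fell in dividing clusters, against 6.11% in E15 MIA 1 and 7.22% to 12% in the rest. At E13 the dividing share was 37.6% to 58.1%, and at P14 at most 1.01%. The part of these in the OXPHOS levels was not tested. Counts of called members without dividing clusters are given below, but not levels.

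From E13 to E15 in saline microglia, 29 of 107 members fell and 1 rose (edgeR quasi-likelihood test, adjusted p under 0.05), where 22.7% of all 14194 genes tested were called, 12.6% higher and 10% lower. The median log2 fold change of the members was -0.39 beside 0.04 over all genes tested. Calls were spread over the machinery. Complex I had 9 of 37 nuclear-encoded members lower, complex II 2 of 4, complex III 2 of 8, complex IV 4 of 15 lower and 1 higher, complex V 8 of 18, the assembly factors 3 of 12 and the mitochondrially encoded members 1 of 13. In the levels themselves, 41 of 107 members had all E15 saline libraries below all E13 saline libraries and 3 had them above, against 17.3% and 20.3% of genes.

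Atp5k, which encodes a small membrane subunit where ATP synthase dimers meet, had the largest fall among the members that passed the test. mt-Nd3 and mt-Atp8 had larger estimates, -1.39 and -1.25, that did not pass (edgeR adjusted p = 0.0599 and 0.0991). The normalised CPM of Atp5k were 447.6, 375 and 477.8 at E13 and 265.1, 224.5 and 131 at E15, with every E15 library below every E13 library. The log2 fold change was -1.07 ± 0.24 (SE, n = 3 and 3, edgeR adjusted p = 0.00578). Atp5b, the catalytic beta subunit of the synthase, went from 539.9, 626.5 and 745.3 to 484.7, 331.6 and 319.5, again without overlap, with a log2 fold change of -0.75 ± 0.16 (edgeR adjusted p = 0.00342). Atp5g3, 1 of 3 genes for the c subunit of the rotor ring, changed by -0.80 ± 0.23 on the log2 scale (edgeR adjusted p = 0.0192) and Atp5md, another small membrane subunit of the synthase, by -0.75 ± 0.21 (adjusted p = 0.0165). Complex V thus supplied 4 of the 8 largest falls among the called members.

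In complex I, Ndufa12, an accessory subunit, went from 235.3, 241.3 and 271.8 normalised CPM to 192.4, 127.1 and 109.6, without overlap, with a log2 fold change of -0.80 ± 0.19 (edgeR adjusted p = 0.00751). Ndufaf2, an assembly factor that acts late in the building of complex I, changed by -0.79 ± 0.18 on the log2 scale (adjusted p = 0.00569) and the accessory subunit Ndufa5 by -0.74 ± 0.22 (adjusted p = 0.0228). Ndufs1, which carries iron-sulfur clusters in the core of the complex, went from 61.51, 55.88 and 49.75 to 39.01, 38.72 and 40.63, with a log2 fold change of -0.50 ± 0.12 (edgeR adjusted p = 0.00877). mt-Nd1, a core subunit of the membrane arm, was the only mitochondrially encoded member called, from 3913, 3665 and 2676 to 1751, 2424 and 1944, at -0.74 ± 0.25 (edgeR adjusted p = 0.0426). mt-Co1, the catalytic subunit of complex IV, stood at 6209, 6339 and 5175 at E13 and 4474, 6626 and 5570 at E15, ranges that overlapped.

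Cox7a2l, a paralogue of Cox7a2, was the member that rose. Its normalised CPM were 260.3, 284.7 and 301.3 at E13 and 393.1, 476.8 and 595.7 at E15, above E13 in every library, with a log2 fold change of 0.79 ± 0.15 (edgeR adjusted p = 0.00187). By P14 it was at 262.3, 265.4, 302.2 and 313.2, a range that overlapped that of E13. The gene rose in MIA libraries as well, by 0.83 ± 0.15 on the log2 scale (edgeR adjusted p = 0.00104). Uqcrh, the hinge protein of complex III, showed a like course in saline libraries, from 432.6, 448.1 and 494.1 to 591.3, 561.6 and 552.7 and then to 323.2, 275.8, 290.2 and 268.7. All its E15 values lay above its E13 values, but its change of 0.31 ± 0.14 missed the threshold in saline (edgeR adjusted p = 0.114), while in MIA libraries it rose by 0.47 ± 0.14 (adjusted p = 0.0193).

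The number of calls between E13 and E15 depended on single libraries. Without E15 saline 1 it was 59 in saline, with a median of -0.56, where 31.1% of all genes were called. It was 16 without E13 saline 3 (14.1% of genes), 16 without E15 saline 2 (13.6%) and 13 without E15 saline 3 (13.9%), so the calls over all genes moved in the same direction. Without dividing clusters 37 members were called, and 29 without copies of shared barcodes. Counts given here and below without a share of all genes may follow changed calls over all genes.

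In MIA microglia, 39 of 107 members fell and 2 rose from E13 to E15, where 26.9% of all genes were called, 13.5% higher and 13.4% lower. The median was -0.44 beside 0.03 over all genes. The largest falls were in complexes IV and V: Cox4i2, an isoform of the complex IV subunit Cox4 known from lung and pericytes, at -1.28 ± 0.41 (edgeR adjusted p = 0.0294), Atp5k at -1.08 ± 0.24 (0.0044) and Cox7a1, the heart and muscle isoform of Cox7a, at -1.07 ± 0.39 (0.0495). None of the 13 mitochondrially encoded members passed, with a median of -0.28. Leaving out E15 MIA 1 gave 62 calls (28% of all genes called), E13 MIA 3 gave 22 (20.2%), E15 MIA 2 gave 20 (18.3%) and E15 MIA 3 gave 26 (26.2%). With copies of shared barcodes left out, 40 members were called.

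**Figure D2:**
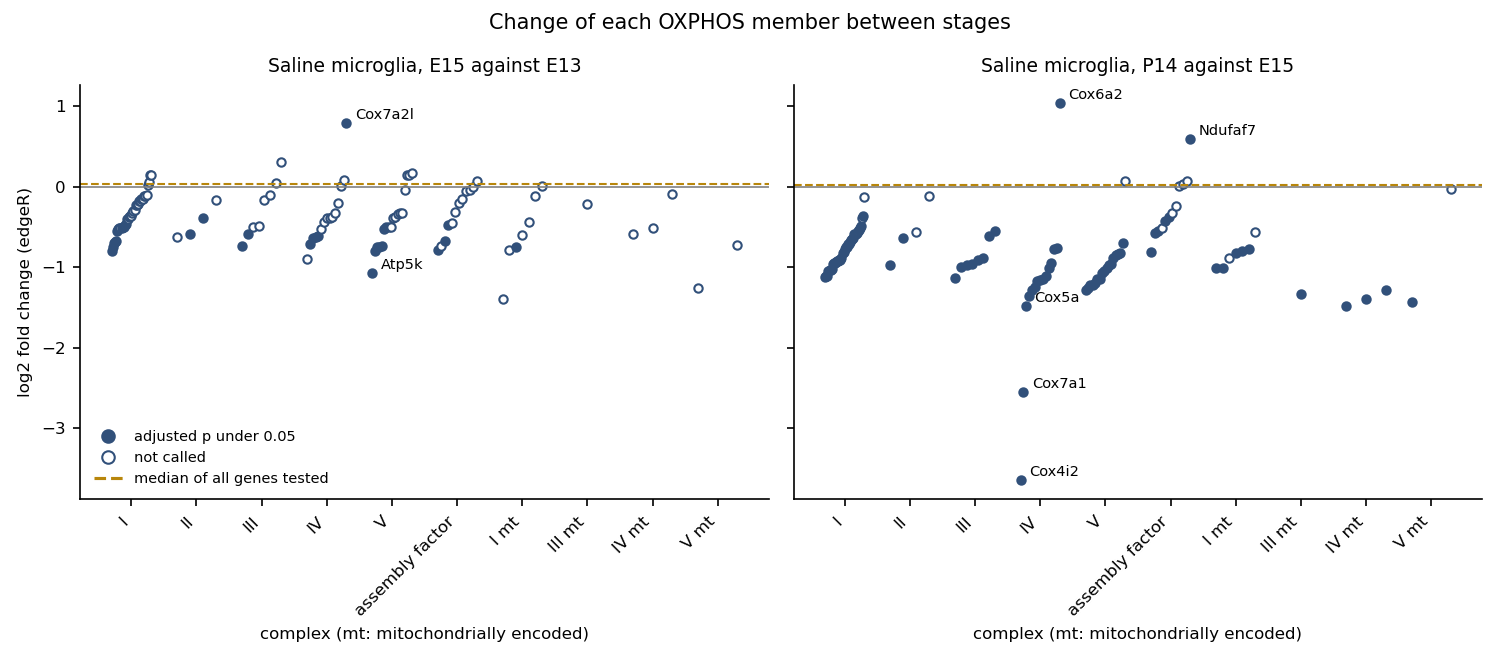
Log2 fold change (y axis) of each tested member in saline microglia, E15 against E13 on the left and P14 against E15 on the right, grouped by complex (x axis; mt marks mitochondrially encoded genes). Filled points passed an adjusted p of 0.05, open points did not, and the dashed line is the median of all genes tested. Most points lie below 0 in both panels, with Cox7a2l the filled point above 0 on the left and Cox6a2 and Ndufaf7 those on the right.

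Many nuclear OXPHOS promoters are known to be bound by NRF1, GABPA, a factor of the ETS family, and YY1. RefSeq start-site windows (build GRCm38.p6, 250 bases before to 50 after the start) were matched for 80 of the 99 nuclear-encoded members, giving 79 distinct windows, and searched on both strands. The letters GCGCATGC, an NRF1 core, occurred in 12 of the 79, or 15.2%, against 2.80% of 27025 gene windows. The ETS letters CCGGAAG occurred in 21, or 26.6%, against 9.12%, and the YY1 letters ATGGCGG in 12, or 15.2%, against 4.19%. At least 1 of the 3 was present in 38 windows, or 48.1%, against 14.5%. The members' windows were also richer in G and C, with a median of 58.7% against 52.7%. Such matches are descriptions of the letters and not of binding. The 150 bases before the start are shown for Atp5k, Ndufa12, Cox7a1 and Cox7a2l, which the stage results turn on, on the strand of the gene, with matches to the NRF1 letters in capitals.
Atp5k (chr5:108434400-108434549, minus strand): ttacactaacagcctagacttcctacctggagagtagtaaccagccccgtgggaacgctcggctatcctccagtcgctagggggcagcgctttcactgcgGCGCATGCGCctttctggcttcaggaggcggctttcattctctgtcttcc
Ndufa12 (chr10:94198885-94199034, plus strand): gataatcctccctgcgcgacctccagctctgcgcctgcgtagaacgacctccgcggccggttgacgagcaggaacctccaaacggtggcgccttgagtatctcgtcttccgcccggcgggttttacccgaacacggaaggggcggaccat
Cox7a1 (chr7:30184021-30184170, plus strand): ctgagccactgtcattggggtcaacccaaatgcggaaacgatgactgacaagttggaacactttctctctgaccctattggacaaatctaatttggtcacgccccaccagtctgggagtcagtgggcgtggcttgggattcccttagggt
Cox7a2l (chr17:83514334-83514483, minus strand): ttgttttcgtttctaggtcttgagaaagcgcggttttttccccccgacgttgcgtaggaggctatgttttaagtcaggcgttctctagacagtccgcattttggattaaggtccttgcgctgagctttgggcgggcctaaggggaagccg
The Atp5k stretch holds 2 overlapping matches, which begin 50 and 48 bases before the start and lie on opposite strands. The other 3 stretches hold none of the 3 sets of letters.

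From E15 to P14 in saline microglia, 90 of 107 members fell and 2 rose, where 48.9% of all genes were called, 24.1% higher and 24.7% lower. The members' median log2 fold change was -0.89 beside 0.03 over all genes. Complex I had 34 of 37 nuclear-encoded members lower, Ndufa4 among them, complex III 8 of 8, complex IV 14 of 15, complex V 17 of 18 and complex II 2 of 4, and the mitochondrially encoded members had 10 of 13 lower. Of the assembly factors, 5 of 12 were lower and 1 higher, with a median of -0.35. In levels, 86 of 107 members had all P14 saline libraries below all E15 saline libraries and 2 had them above, against 25.9% and 26.3% of genes. Calls numbered 78 to 94 when any 1 library was left out (38.4% to 49.5% of all genes), 91 without copies and 86 without dividing clusters.

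Complex IV had the largest falls. Cox4i2 fell from 282, 33 and 58 UMIs in the E15 saline libraries to 2, 4, 7 and 7 at P14, or from 4.437, 1.109 and 1.54 to 0.0952, 0.148, 0.268 and 0.224 normalised CPM, a log2 fold change of -3.65 ± 0.44 (edgeR adjusted p = 5.6e-06). Cox7a1 went from 5.224, 2.487 and 1.806 to 0.809, 0.555, 0.268 and 0.575, at -2.55 ± 0.39 (edgeR adjusted p = 5.95e-05). Both are isoforms of muscle, lung or pericyte mitochondria and gave few UMIs here, yet no P14 library reached the lowest E15 library. Summed pericyte markers stood at 0.664 to 1.02 normalised CPM in the E15 saline libraries and 0.381 to 0.777 at P14, and their part in the fall of Cox4i2 was not tested. Cox5a, which has no such isoform, went from 577.2, 351 and 339.6 to 159.3, 134.9, 162.6 and 149.4, also without overlap, at -1.48 ± 0.20 (edgeR adjusted p = 2.01e-05). Cox4i1, the common isoform of Cox4, fell by 1.17 on the log2 scale, ± 0.15 (edgeR adjusted p = 1.13e-05). Ndufa4, which by its symbol was counted with complex I, went from 613.2, 382.5 and 334.7 to 269.5, 243.8, 225.9 and 203.9, at -0.91 ± 0.20 (edgeR adjusted p = 0.00143).

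The mitochondrially encoded genes that fell by more than the members' median included mt-Cytb, mt-Atp6, the 3 mt-Co genes and mt-Nd1. mt-Co3 stood at 4249, 6420 and 5281 normalised CPM at E15 and 1919, 1592, 2075 and 2054 at P14, with a log2 fold change of -1.48 ± 0.27 (edgeR adjusted p = 0.000261). mt-Co1 was at 4474, 6626 and 5570 and then at 1847, 2126, 2216 and 2235, at -1.40 ± 0.19 (edgeR adjusted p = 1.95e-05), and neither gene overlapped between stages. mt-Atp6, a proton-channel subunit of complex V, changed by -1.43 ± 0.28 (edgeR adjusted p = 0.00053) and mt-Cytb, the mitochondrially encoded subunit of complex III, by -1.34 ± 0.20 (3.86e-05). In complex I, mt-Nd1 went from 1751, 2424 and 1944 to 994.6, 924.7, 1063 and 1060, at -1.01 ± 0.23 (edgeR adjusted p = 0.00184). The mitochondrially encoded members not called were mt-Nd3, mt-Nd6, the gene transcribed from the light strand, and mt-Atp8, with log2 fold changes of -0.56, -0.89 and -0.02.

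Of the core subunits named whatever their values, Ndufs1, Sdha, Sdhb, Ndufv1 and mt-Nd6 did not pass. Ndufs1 was at 39.01, 38.72 and 40.63 normalised CPM at E15 and 32.66, 34.71, 38.44 and 38.22 at P14, a change of -0.13 ± 0.11 (edgeR adjusted p = 0.357), although all 4 P14 values were lower. Sdha, the flavin-bearing subunit that oxidises succinate, was at 90.33, 87.6 and 89.7 and then at 75.26, 83.1, 86.62 and 84.88, again lower in every library, at -0.11 ± 0.11 (adjusted p = 0.401). Sdhb, its iron-sulfur partner, changed by -0.56 ± 0.24 (adjusted p = 0.0606) and Ndufv1, which holds the NADH site of complex I, by -0.55 ± 0.24 (adjusted p = 0.067). The other 8 nuclear-encoded members not called were Ndufc2, Atp5s and the assembly factors Ndufaf1, Ndufaf3, Ndufaf4, Ndufaf6, Sdhaf1 and Sdhaf3, named here because they did not pass.

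Cox6a2 and Ndufaf7 rose. Cox6a2, the heart and muscle isoform of Cox6a, stood at 2.234, 2.353 and 1.753 normalised CPM at E15 and 5.76, 5.291, 3.258 and 3.1 at P14, without overlap and with 66 to 143 UMIs per library, at 1.04 ± 0.32 (edgeR adjusted p = 0.0132). Ndufaf7, a methyltransferase needed to assemble complex I, stood at 37.24, 25.88 and 23.92 and then at 46.46, 45.58, 40.24 and 43.05, at 0.59 ± 0.17 (edgeR adjusted p = 0.00995).

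In MIA microglia, 70 of 107 members fell and 2 rose from E15 to P14, where 36.9% of all genes were called, 18.2% higher and 18.7% lower, and the median was -0.71 beside 0.01. Cox6a2 and Ndufaf7 were again the genes that rose, by 1.30 ± 0.37 (edgeR adjusted p = 0.0102) and 0.60 ± 0.20 (adjusted p = 0.0301). Cox4i2 at -2.81 ± 0.58 and Cox7a1 at -2.72 ± 0.52 again had the largest falls, followed by mt-Atp6 at -1.78 ± 0.36 and mt-Co3 at -1.72 ± 0.34. With 2 P14 MIA libraries, the count was 43 without P14 MIA 1 (23.2% of all genes called) and 31 without P14 MIA 2 (21%). With copies of shared barcodes left out, 62 members were called.

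Other gene lists in the same libraries moved as follows from E15 to P14 in saline. Cytosolic ribosomal proteins had 79 of 81 genes lower and a median of -1.29, and their summed level went from 212767 to 226336 normalised CPM in E15 saline to 89056 to 94125 at P14. Glycolysis had 14 of 18 lower and 1 higher (median -1.53), mitochondrial ribosomal proteins 53 of 78 lower (median -0.60), the tricarboxylic acid cycle 9 of 16 lower (median -0.35) and antioxidant genes 7 of 8 lower (median -0.73). Regulators of mitochondrial biogenesis had 2 of 14 lower and 2 higher, with a median of 0.11, and assembly factors outside the rule had 6 of 27 lower (median -0.16). Since 24.7% of all genes were lower and 24.1% higher, these last 2 lists had a smaller share of genes called than all genes tested. Malat1, a nuclear RNA, went the other way, from 9161 to 18816 at E15 saline to 26011 to 34670 at P14. From E13 to E15 in saline, by contrast, ribosomal proteins had 5 lower and 3 higher with a median of 0.10, whereas mitochondrial ribosomal proteins had 24 of 78 lower and none higher, with a median of -0.39, where 10% of all genes were lower and 12.6% higher. Glycolysis had 3 of 18 lower and a median of -0.41, close to that of the members, and the tricarboxylic acid cycle 6 of 16 lower with a median of -0.29. Assembly factors outside the rule had 6 of 27 lower (median -0.26), regulators of mitochondrial biogenesis 5 of 14 (median -0.16) and antioxidant genes 1 of 8 (median -0.03).

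Several members have paralogues, and the share of each paralogue among the UMIs of its set does not depend on the total of the library. These shares describe RNA and not which protein sits in the complex. Counts of near-identical copies can be split by alignment, so the shares are set side by side between libraries only. Among the Cox7a genes, Cox7a2l held 36.5% to 37.3% of UMIs in E13 saline, 49.8% to 68.9% in E15 saline and 60.2% to 67.9% in P14 saline. In MIA libraries it held 35.6% to 38%, 55.2% to 65.9% and 60.4% to 60.9%. The E13 libraries of both treatments lay below all later libraries. The gene thus kept its higher share at P14 although its level had come down, since Cox7a2 went from 446.4, 474.4 and 507 normalised CPM at E13 to 390.7, 279.3 and 267.6 at E15 and 172.3, 169.1, 159.5 and 147.2 at P14.

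Among the 3 genes for the ATP synthase c subunit, whose mature protein is known to be the same, Atp5g2 held 44% to 44.8% in E13 saline, 59.1% to 61.6% in E15 saline and 57.3% to 59.6% in P14 saline. The MIA values were 43.4% to 45.6%, 59.4% to 64.6% and 56.9% to 57.6%. Atp5g2 stepped up between E13 and E15 with no overlap, while Atp5g1 went from 31.6% to 33.7% in E13 saline to 22.7% to 24.7% in E15 saline and Atp5g3 from 21.9% to 24.4% to 14.2% to 16.7%.

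The muscle-type isoforms were rare throughout. Cox6a2 held 0.414% to 0.492% of Cox6a UMIs in E13 saline, 0.563% to 0.885% in E15 saline and 2.68% to 3.67% in P14 saline, and 4.23% to 4.69% in P14 MIA, so that the 2 P14 MIA libraries were the highest of all. Cox4i2 held 0.245% to 0.311%, then 0.102% to 0.312%, then 0.0161% to 0.0486% of Cox4i UMIs in saline. Cox8b had 0 UMIs in every library, where a count of 0 allows up to 3. In the cortex nuclei Cox7a2l held 29.3% to 33.5%, below all microglia, and Cox6a2 at most 0.0345%.

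**Figure D3:**
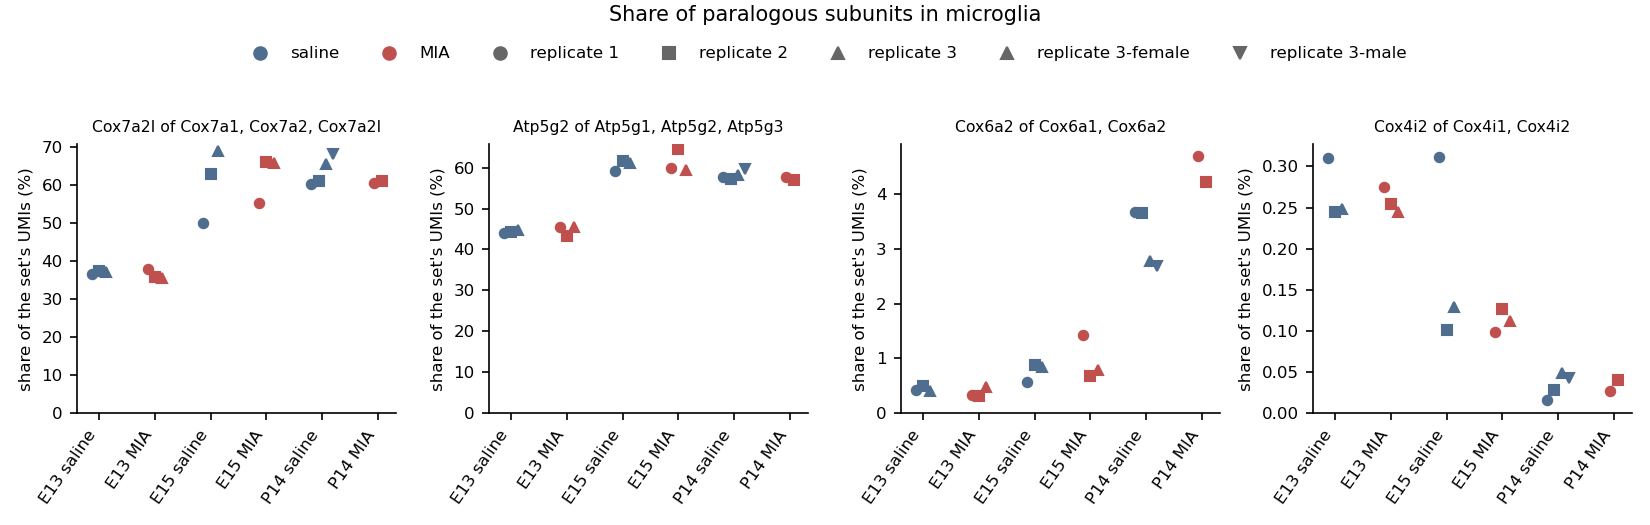
Share of a paralogue among the UMIs of its set, in percent (y axis, starting at 0), in each microglia library by stage and treatment (x axis), for Cox7a2l, Atp5g2, Cox6a2 and Cox4i2. Each point is a library, blue for saline and red for MIA. Cox7a2l and Atp5g2 step up from E13 to E15 and stay, Cox6a2 is highest at P14 and Cox4i2 lowest there.

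MIA was compared with saline within each age, to ask whether OXPHOS transcripts differed after maternal immune activation. At E13, E15 and P14 none of the members was called by edgeR or by DESeq2, where 0% of 12396, 13100 and 12934 genes were called by edgeR. The median log2 fold changes of the members were -0.02, -0.06 and 0.08, and over all genes tested 0.0015, 0.0095 and -0.0038. At an unadjusted p under 0.05 there were 0, 0 and 1 members, beside 121, 43 and 468 of all genes. Leaving out copies of shared barcodes gave 0 calls at each age. On simulated data the E15 design missed most changes of 2-fold, whereas those of E13 and P14 found most of them. The counts of 0 thus do not carry the same weight. For changes of 1.5-fold the recovery was 38% at E13, 1% at E15 and 51% at P14. False calls numbered 15, 1 and 6. Smaller changes, such as the members' medians, were not simulated, so the counts of 0 do not speak to them.

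The single genes with the lowest p can be given as values. At E13, Atp5s, counted with complex V by its symbol, had a log2 fold change of 0.29 ± 0.15, mt-Nd4l one of -0.19 ± 0.20 and Ndufs6 one of -0.09 ± 0.11 (edgeR adjusted p = 1 for each). At E15, Cox4i2 stood at -0.86 ± 0.52, mt-Nd3 at 0.67 ± 0.53 and mt-Cytb at 0.21 ± 0.20 (edgeR adjusted p = 1 for each). The estimate of Cox4i2 rested on E15 saline 1, at 4.44 normalised CPM. The other E15 saline libraries stood at 1.11 and 1.54, and the E15 MIA libraries at 1.09 to 1.42. At P14, mt-Nd4l stood at 0.36 ± 0.09, Cox6a2 at 0.60 ± 0.27 and Sdhb at 0.22 ± 0.12 (edgeR adjusted p = 0.943 for each).

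Nuclear and mitochondrial members had estimates of mostly opposite sign at E15, but by replicate number this split showed only in replicate 3. Of the 94 nuclear-encoded members tested, 80 had a negative estimate after MIA (median -0.08), while all 13 mitochondrially encoded members had a positive one (median 0.21). Among other lists, mitochondrial ribosomal proteins had 65 of 77 negative (median -0.08) and the tricarboxylic acid cycle 13 of 16. Glycolysis had 4 of 18 negative and cytosolic ribosomal proteins 34 of 81. The mitochondrially encoded sums were 24374, 34180 and 29043 normalised CPM in E15 saline and 23544, 33998 and 44416 in E15 MIA, so that E15 MIA 3 lay above the saline range and E15 MIA 1 just below it. Paired by replicate number, the nuclear-encoded members had a median log2 ratio of -0.16 in replicate 1, -0.03 in replicate 2 and -0.05 in replicate 3, with 80, 64 and 55 of 94 lower. Of all genes, 49.7%, 53.5% and 50.6% were lower. The median log2 ratio of the mitochondrially encoded members was -0.09 in replicate 1, -0.01 in replicate 2 and 0.63 in replicate 3. Of these 13 members, 11, 9 and 0 were lower. E15 MIA 3 also had the largest share of copied barcodes among the cells used, 16.4%. At E13 the values by replicate number were 0.19, 0.05 and -0.46, where E13 MIA 3 was the lowest of the E13 libraries, at 24743 normalised CPM. The difference of the MIA response between E15 and E13 was called for 0 members by edgeR and by DESeq2 (0% of 13461 genes, 0 members and 52 genes at an unadjusted p under 0.05), with a median of 0.33 over the mitochondrially encoded members. This design found almost no change of 2-fold on simulated data.

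At P14, 8 of 107 members had both MIA libraries above all 4 saline libraries and 2 had both below, where 5.84% and 5.62% of genes did. At E13 this held for 1 and 0 members (2.49% and 2.41% of genes) and at E15 for 0 and 0 (1.19% and 1.59%).

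**Figure D4:**
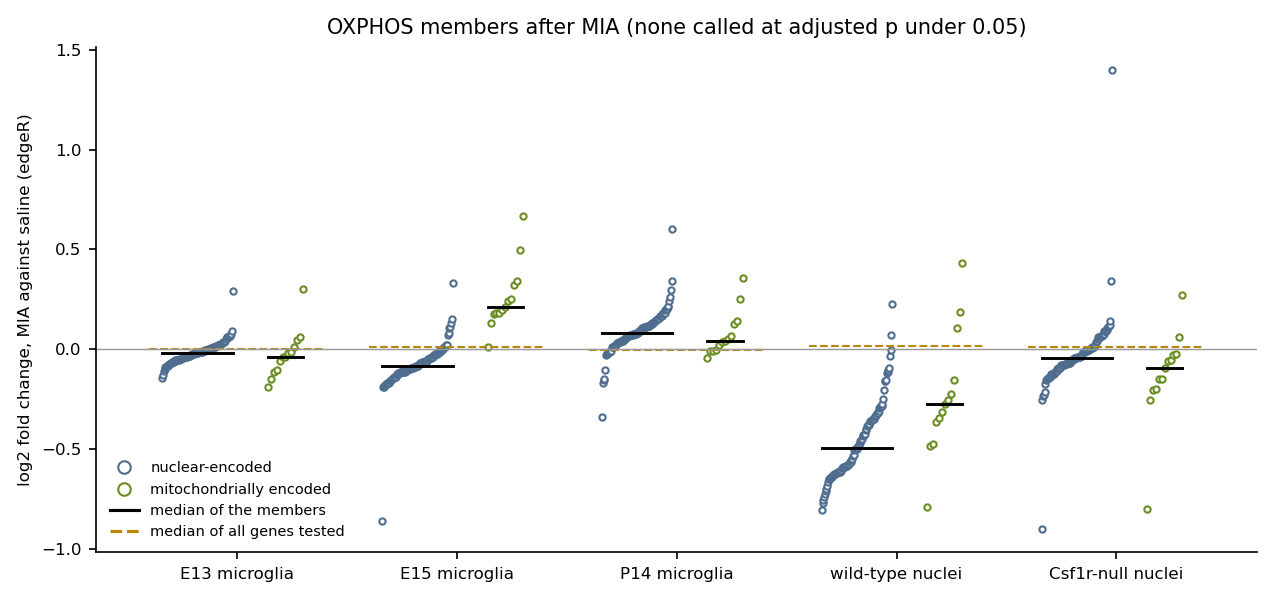
Log2 fold change after MIA (y axis) of each member in microglia of 3 ages and in nuclei of 2 genotypes (x axis), with nuclear-encoded members in blue and mitochondrially encoded members in green. Solid lines are medians of the members and dashed lines medians of all genes tested, and no point passed an adjusted p of 0.05. The nuclear-encoded members of wild-type nuclei sit mostly below 0, with a median of -0.49.

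Nuclei of cortex hold newly made RNA and little mitochondrial RNA. Summed mitochondrially encoded members were 132 and 344 normalised CPM in wild-type saline, 238 and 141 in wild-type MIA, 326 and 217 in Csf1r-null saline and 224 and 285 in Csf1r-null MIA. Summed nuclear-encoded members were 12956 and 18060 in wild-type saline, 11250 and 10788 in wild-type MIA, 12179 and 12172 in Csf1r-null saline and 9368 and 14324 in Csf1r-null MIA, replicates 1 and 2 in that order. Both wild-type MIA libraries thus lay below both wild-type saline libraries, and wild-type saline 2 stood above all others. The 2 wild-type saline libraries also stood apart in composition. Wild-type saline 1 supplied 742 of 886 striatal-like nuclei, a cluster at 15056 CPM for nuclear-encoded members, and wild-type saline 2 supplied 77.7% of an unnamed cluster of 772 nuclei at 21220 CPM. Another unnamed cluster, of 1962 nuclei, stood at 15797 CPM. Over all unnamed clusters, Csf1r-null saline 1 held 772 of its 5719 nuclei and wild-type saline 2 held 663 of 4479. The other libraries held 144 to 429, so composition differed among Csf1r-null libraries as well. Their part in the levels of the whole libraries was not tested, and levels within named types are given below.

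In wild-type nuclei after MIA, no member was called by edgeR or by DESeq2 (0% of 14367 genes by edgeR). On simulated data the 4 nuclei comparisons found almost none of the changes of 2-fold, so that a count of 0 says little here. At an unadjusted p under 0.05 there were 35 of 107 members and 841 of all genes. The estimates were negative for 102 of 107 members, with a median of -0.47 beside 0.01 over all genes. In levels, 70 of 105 members had both MIA libraries below both saline libraries and 0 had them above, where 18.6% and 16.6% of genes did. Uqcrc1, a core protein of complex III, stood at 94 and 103.5 normalised CPM in saline and 64.3 and 62.9 after MIA, without overlap, with a log2 fold change of -0.63 ± 0.14 (edgeR adjusted p = 0.851). Atp5g3 stood at 174 and 214.2 and then at 123.2 and 112.1, at -0.72 ± 0.19, and Ndufa12 at 126.3 and 172.1 and then at 87.1 and 91.5, at -0.74 ± 0.20 (edgeR adjusted p = 0.851 for both). By contrast Ndufs1 stood at 54.67 and 48.3 in saline and 49.69 and 46.33 after MIA, ranges that overlapped.

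The size rested on single libraries. The median over the members was -0.20 without wild-type saline 2 and -0.72 without wild-type saline 1, and without both libraries that go against their labels it was -0.41. That last value compares 1 MIA library with 2 saline libraries. Compared by replicate number, the nuclear-encoded members had a median log2 ratio of -0.23 in replicate 1 (77 of 93 lower) and -0.72 in replicate 2 (90 of 93 lower). The mitochondrially encoded members went in opposite directions, at 0.78 in replicate 1 and -1.17 in replicate 2. In the other lists no gene was called. Cytosolic ribosomal proteins had a median of -0.32 (79 of 81 negative), mitochondrial ribosomal proteins -0.31 (73 of 78), antioxidant genes -0.32 (8 of 8), glycolysis -0.13 and the tricarboxylic acid cycle -0.10. Assembly factors outside the rule had a median of -0.08 (16 of 27 negative) and regulators of mitochondrial biogenesis one of 0.0023 (6 of 13 negative).

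The other nuclei comparisons gave no calls either, by edgeR or by DESeq2, with 0% of genes called by edgeR. In Csf1r-null nuclei after MIA the median was -0.04, and -0.08 without both libraries that go against their labels, with 1 member and 40 genes at an unadjusted p under 0.05. The nuclear-encoded median by replicate number was -0.37 in replicate 1 and 0.24 in replicate 2, the pair that includes the saline library going against its label. The median was 0.21 without Csf1r-null MIA 1 and -0.38 without Csf1r-null MIA 2, so its direction rested on single libraries. In levels, 2 members lay above and 1 below, against 9.58% and 6.04% of genes. In saline nuclei, Csf1r-null against wild type, the median was -0.31, -0.32 without both of those libraries and -0.10 without wild-type saline 2, with 19 members and 908 genes at an unadjusted p under 0.05, and 58 of 105 members lay below and 1 above without overlap, against 20.7% and 17.4% of genes. The difference of the MIA response between genotypes had a median of 0.43, 0.39 without both of those libraries, 0.18 without wild-type saline 2 and 0.08 without Csf1r-null MIA 2, with 8 members and 277 genes at an unadjusted p under 0.05. The 3 wild-type and Csf1r-null contrasts share saline libraries, and so does this difference.

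Nuclei were then compared within 7 named types. Nuclear-encoded members summed to 8487 to 15357 CPM of the type in interneuron-like nuclei (median 10721 over the 8 libraries), 9835 to 13855 in callosal projection neuron-like nuclei (median 11603), 10408 to 18116 in apical progenitor-like nuclei (median 12975) and 10889 to 17280 in intermediate progenitor-like nuclei (median 13669). The ranges of all 7 types overlapped. In each type both wild-type MIA libraries lay below both wild-type saline libraries, but by little in the subcerebral projection neuron-like nuclei, where the nearest pair stood at 12124 and 12128. Mitochondrially encoded members showed a wider spread, with 173 to 672 in callosal projection neuron-like nuclei (median 373) and 68.5 to 195 in apical progenitor-like nuclei (median 122).

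After MIA in wild type, the median over the tested members was below 0 in all 7 types: -0.46 in apical progenitor-like nuclei (94 of 98 negative), -0.35 in intermediate progenitor-like (85 of 98), -0.45 in migrating neuron-like (87 of 101), -0.29 in callosal (85 of 101), -0.30 in subcerebral (85 of 98) and -0.38 in corticothalamic projection neuron-like (94 of 100), and -0.56 in interneuron-like nuclei (88 of 94). No member was called in any type by edgeR, where 0% of genes were, and the medians over all genes tested lay between -0.00022 and 0.02. At an unadjusted p under 0.05 there were 9 of 101 members in the callosal projection neuron-like nuclei, beside 307 of 10473 genes, and 36 of 98 in the apical progenitor-like nuclei, beside 986 of 10648 genes, so the counts over all genes differed between types as well. Without both libraries that go against their labels, which leaves 1 wild-type MIA library, the medians were -0.21 in subcerebral to -0.58 in interneuron-like nuclei. The types come from the same 8 libraries and are not separate replicates.

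**Figure D5:**
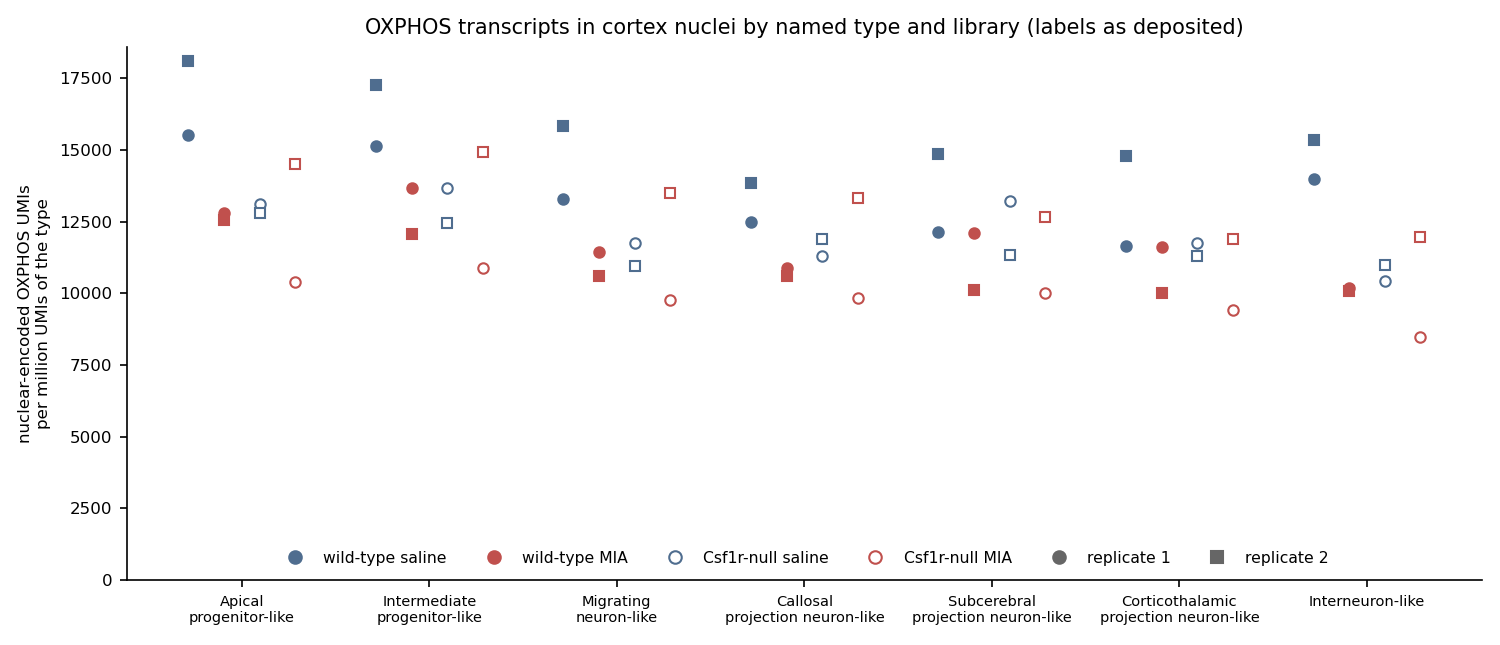
Nuclear-encoded OXPHOS CPM of a type (y axis, starting at 0) in each of the 8 nuclei libraries, by named type (x axis). Colour marks treatment, filled points are wild type, open points Csf1r-null, circles replicate 1 and squares replicate 2, with labels as deposited. Wild-type saline 2 is the highest library in all 7 types, and the ranges of the types overlap.

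Barcodes with few UMIs were richer in OXPHOS transcripts than nuclei. In the 4 replicate 1 nuclei libraries, which list barcodes with 1 to 100 UMIs, the CPM of nuclear-encoded members were 2.53 to 2.99 times as high in those barcodes as in nuclei, mitochondrially encoded members 1.25 to 3.1 times and ribosomal proteins 2.43 to 3.69 times, while Malat1 stood at 0.275 to 0.355 times. Wild-type saline 1 held 6279486 UMIs in such barcodes, against 3319257 to 3717725 in the other 3. Its part in the levels of the nuclei was not tested.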

How the data were processed

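The authors aligned reads of 10x Genomics 3′ libraries to mm10 and deposited UMI counts per gene and barcode from Cell Ranger (3.1.0 or 6.0.1 per the file headers, 3.1.0 in the submitters' processing notes). Replicate 2 of the nuclei has another gene list and a barcode filter from replicate 1, so those settings go with the replicate number. Kept were microglial barcodes of 500 or more genes whose mitochondrial share did not exceed 20%, and nuclei of 500 or more UMIs and 200 or more genes. The 20% cutoff removed 1.21% to 10.7% of microglia per library at E13, 0.331% to 2.47% at E15 and at most 0.256% at P14. It acts on the mitochondrially encoded members themselves, and their sums without it are not given. Putative doublets (0.8% per 1000 barcodes, by simulated doublets) were removed. Cells were clustered (2000 variable genes, 30 components, Leiden resolution 1; leidenalg 0.10.2) without the members, and clusters led by other cell types' markers were removed from the microglia. Nuclei clusters were named from marker lists.

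UMI counts were summed per library and tested with the quasi-likelihood test of edgeR 4.0.16 (TMM factors, filterByExpr) with Benjamini-Hochberg adjustment over all genes and a threshold of 0.05. Stage comparisons used 1 model of 18 libraries, MIA comparisons the libraries of that age, and nuclei 1 model of 8. DESeq2 1.42.0, RLE factors, no filter, other mitochondrial cutoffs, each library left out and a replicate block were alternatives. The fit was tested on simulated data with known changes.

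The members and lists were chosen with earlier results of these data known. Named genes were the 8 called members with the largest change in each direction, or the 3 with the lowest p where under 3 were called, plus 16 core subunits, mt-Nd6 and the isoform sets, whatever their values. Members named because they were not called were chosen after their values were seen. Libraries with the same number deviated together at E15 (correlations of 0.575, 0.184 and 0.594), and at E13 in replicates 1 and 3 only (0.367, 0.00182 and 0.428).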

Additional observations from a re-analysis of the deposited data

Results flagged for a closer look

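In P14 saline microglia, replicate 2 stood apart in the summed mitochondrially encoded subunits of complex I, at 3557.52 normalised CPM. The nearest of the other 3 libraries stood at 3731.23, and the gap was 0.874 of the group's whole range, above the critical value of Dixon's test. This was the single flag among 28 values tested, and chance flags about 1 in 20 groups. None of 112 pairs of contrasts had libraries that all moved in opposite directions.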

How the results depend on the processing

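The 4 stage comparisons kept their direction under every alternative, with members called (saline E15 against E13, saline P14 against E15, MIA E15 against E13, MIA P14 against E15) numbering 35, 93, 42 and 76 by DESeq2, 29, 91, 34 and 72 with RLE factors, and 31, 82, 41 and 62 without mitochondrially encoded genes. Leaving out 1 library gave 13 to 59, 78 to 94, 20 to 62 and 31 to 75. With the replicate number as a block, called members were 40, 92, 46 and 74, and the block changed no MIA call, leaving 0 in microglia and nuclei. Where no share of all genes stands beside a count, here or above, a changed count may follow changed calls over all genes. MIA comparisons gave 0 under the alternatives run, except that without the filter on low counts 1 member was called lower in wild-type nuclei after MIA and 1 in Csf1r-null against wild-type saline nuclei. The cause was not tested. No named member that passed the test reversed its direction. Depth limits Cox4i2 and Cox7a1, with 2 to 18 UMIs per P14 library. Where a group is left with 1 library, that library is assumed to vary like the other groups.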

Other observations

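Dividing microglia were compared with the others of the same library, as values only. The CPM of nuclear-encoded members in dividing clusters were 0.938 to 0.98 times those of other microglia at E13, 1.04 to 1.15 times at E15 and 1.29 to 1.65 times at P14, so that the ratio lay below 1 in all 6 E13 libraries and above 1 in the other 12. Mitochondrially encoded members stood at 0.874 to 0.967 times at E13 and 0.923 to 1 times at E15. At P14 they stood at 2.89 and 2.42 times in saline 3-female and 3-male, which share 239 barcodes, and at 1.03 to 1.28 times in the other 4. The P14 dividing clusters held 2 to 44 cells per library.

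Among the nuclei, the unnamed cluster of 772 nuclei that came mostly from wild-type saline 2 had the highest nuclear-encoded level of all 23 clusters, 21220 CPM, together with 843 for mitochondrially encoded members and 76617 for ribosomal proteins. The members took no part in the clustering. Its leading genes included Rnasek, Atp6v0c and Nme2. Microglia-like nuclei, 30 in all, stood at 7975, the lowest of the 23 clusters.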
